A study of Rattus norvegicus with 18 samples.

Results

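The interleukin-6 family in rat knee synovium was followed through 9 genes: the cytokines Il6, Lif and Osm, the receptor chains Il6r, Il6st, Lifr and Osmr, the transcription factor Stat3 and the feedback inhibitor Socs3. Its members were the gene probes of the arrays whose gene name, or a current synonym of it, is one of these symbols. All 9 genes had a probe, with 12 probes between them, among 35042 genes or transcripts with a probe. Of the 9 members, 8 could be tested among 23590 genes or transcripts tested, since the Osm probe was well above background on 0 of 18 arrays.

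Interleukin-6 binds its own receptor chain, encoded by Il6r, and the pair then engages the signalling chain gp130, encoded by Il6st. Leukaemia inhibitory factor (Lif) and oncostatin M (Osm) share gp130 and pair it with the chains encoded by Lifr and Osmr. The complexes activate Janus kinases, which phosphorylate STAT3, and STAT3 induces Socs3, whose protein binds gp130 and the kinases and shuts the signal down. In arthritic synovium the family is known for its output from fibroblasts and macrophages, and antibodies to the interleukin-6 receptor are used to treat rheumatoid arthritis.

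The arrays were 1-colour Agilent rat arrays of total RNA from knee synovial tissue of male Lewis rats aged 6 to 8 weeks, with 3 arrays in each of 6 groups. AIA-cold-WTD and AIA-hot-WTD rats carried adjuvant-induced arthritis of the cold or hot type and received WTD, the herbal formula the study examined. AIA-cold and AIA-hot rats carried the same model types without WTD, AIA rats carried adjuvant-induced arthritis alone, and control rats were normal. How the cold and hot types were produced and how WTD was dosed is not given in the sources used here. The study used 6 rats in each of 10 groups, and the labels of these arrays name only the 6 above. Titles of the WTD arrays carry letters that the labels do not explain. By replicate they are G, Z and Z in AIA-cold-WTD and D, G and Z in AIA-hot-WTD. Whether all arrays of a WTD group stand for the same WTD treatment is therefore not known. The labels do not tie arrays to animals, so the p-values measure the spread between arrays, which may be partly technical.

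A level is the log2 signal of a probe minus the 75th percentile of its array, so 0 is that percentile and a difference of 1 is a doubling. Levels of different genes rest on different probes and were not compared. Replicate 1 of the control group was dimmer than all others, with a 75th percentile signal of 68.9 against 201 to 331 on the other 17 arrays, 43.3% of probes well above background against 56.4% to 76.6%, and a mean cartilage marker level of 6.14. The lubricin gene Prg4, the macrophage gene Cd68 and the adipocyte gene Adipoq were well above background on 18 of 18 arrays. In pieces of tissue, fewer cells of a type and less RNA per cell cannot be told apart.

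The 60-base probes of 4 members are shown because the Il6, Osmr and Socs3 values each rest on 1 such oligonucleotide, and because the Stat3 one differs in its result from a second Stat3 probe. Coordinates are those of the array's own annotation on the rn4 build, on the minus strand in all 4 cases. The Il6 probe lies at chr4:457279-458563, the Socs3 probe at chr10:107958703-107958762, the Osmr probe at chr2:56081199-56081943 and the Stat3 probe at chr10:89823819-89824169. Those for Il6, Osmr and Stat3 span 1285, 745 and 351 genomic bases, more than their 60 bases, so they cross at least 1 exon junction. They are given as deposited, in lower case, with no part marked.
Il6: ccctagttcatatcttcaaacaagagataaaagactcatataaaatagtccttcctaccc
Osmr: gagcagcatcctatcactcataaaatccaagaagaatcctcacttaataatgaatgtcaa
Stat3: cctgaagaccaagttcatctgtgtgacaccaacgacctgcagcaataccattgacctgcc
Socs3: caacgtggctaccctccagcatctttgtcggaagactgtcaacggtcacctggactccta
The Il6 probe and the other, brighter Stat3 probe were each printed 10 times per array and averaged, while the other member probes had 1 spot. The Osm and Lif probes lie 30.8 kb apart on chromosome 14, and those of Osmr and Lifr lie 396 kb apart on chromosome 2.

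No member passed the threshold of an adjusted p of 0.05 (limma, Benjamini-Hochberg over all genes) in any of 11 comparisons. Against control, 0 of 8 members were called in AIA-cold, where 0.534% of all genes tested were called, 0 of 8 in AIA-hot (0.0551% of all genes), 0 of 8 in AIA (0%), 0 of 8 in AIA-cold-WTD (0.0297%) and 0 of 8 in AIA-hot-WTD (0.0805%). The count was also 0 of 8 for AIA-cold against AIA (0%), AIA-hot against AIA (0%), AIA-cold against AIA-hot (0.00848%), AIA-cold-WTD against AIA-cold (0.00848%), AIA-hot-WTD against AIA-hot (0%) and the difference between both WTD effects (0%). With such shares of all genes, 0 of 8 does not set the members apart. At an unadjusted p under 0.05, at most 1 of 8 members was found in a comparison, against 2.29% to 18.7% of all genes. The smallest adjusted p of a member was 0.093, for Il6 in AIA-cold against control. The intervals below are 95% intervals from the same fit and are not adjusted over genes.

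**Figure D1:**
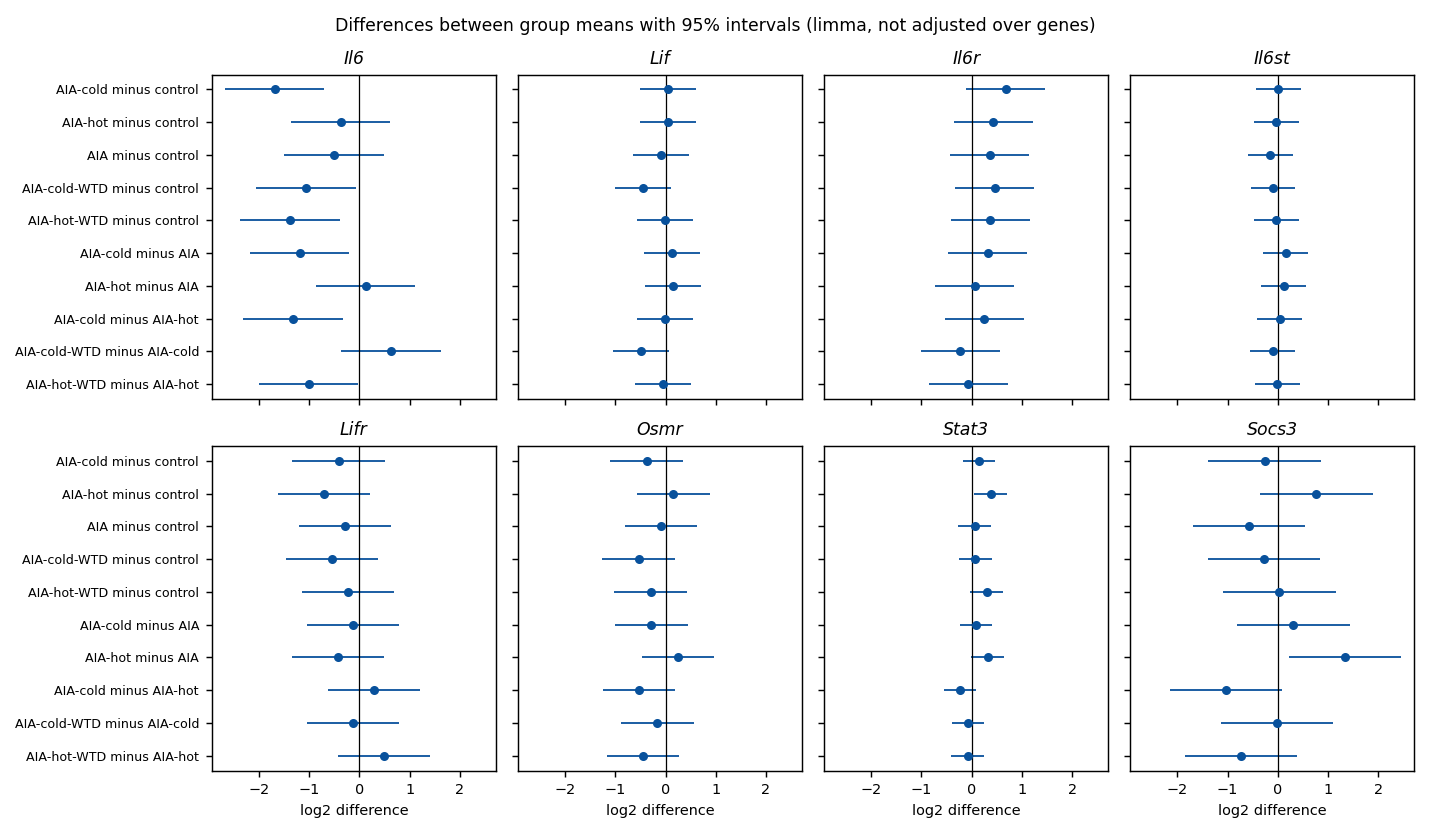
Log2 differences (x axis, point) with 95% intervals (bars) of the 8 tested members in the 10 pairwise comparisons listed on the y axis, from the limma fit of 18 arrays. The Il6 and Socs3 intervals are the widest, the Il6st and Stat3 intervals the narrowest, and Il6 lies lowest in AIA-cold minus control at -1.69. Il6st and Stat3 are shown by their brightest probe.

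The probe of Il6, the founding cytokine, was well above background on 7 of 18 arrays, namely 3 of 3 in AIA-cold-WTD, 0 of 3 in AIA-cold, 0 of 3 in AIA-hot-WTD, 2 of 3 in AIA-hot, 1 of 3 in AIA and 1 of 3 in control. Its level was -3.86, -4.25 and -4.11 in AIA-cold-WTD and -4.98, -4.56 and -4.55 in AIA-cold. It was -4.48, -4.01 and -4.70 in AIA-hot-WTD and -2.81, -2.97 and -4.38 in AIA-hot. AIA arrays read -3.64, -3.69 and -3.18, and control arrays read -1.75, -3.63 and -3.65. Every AIA-cold array lay below every array of AIA-cold-WTD, AIA-hot, AIA and control. The floor of an array, its lowest level among probes well above background, was -4.31, -4.24 and -4.51 in AIA-cold. It was -3.78, -3.46 and -4.06 in AIA-hot, -3.40, -3.59 and -3.41 in AIA and -1.86, -3.90 and -3.72 in control. AIA-cold-WTD floors were lower, at -4.80, -4.96 and -5.25. The part of the floors in this separation was not tested, and the share of all genes that separate so was not counted. The highest control value came from the dim replicate 1, on which the probe itself was not well above background.

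No AIA-cold array and 1 of 3 control arrays measured Il6 well above background, so its differences rest largely on values below detection and no fold is given. Group means were -4.69 ± 0.24 in AIA-cold and -3.01 ± 1.09 in control (SD, n = 3 each), a difference of -1.69 with an interval from -2.68 to -0.69 (adjusted p = 0.093, limma). The difference was -1.06 without control replicate 1 (adjusted p = 0.213). AIA-cold shared no slide with control, AIA or AIA-hot, so slide and group cannot be told apart in these comparisons. Against AIA the difference was -1.19 (interval -2.18 to -0.20, adjusted p = 0.457), with AIA measured on 1 of 3 arrays. Against AIA-hot it was -1.31 (interval -2.30 to -0.32, adjusted p = 0.751), with AIA-hot measured on 2 of 3 arrays. AIA-hot itself differed from control by -0.37 (interval -1.37 to 0.62, adjusted p = 0.77), and by 0.25 without control replicate 1 (adjusted p = 0.856), in the other direction. With 11 of 18 values below detection, no order of the 6 groups is given for Il6.

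**Figure D2:**
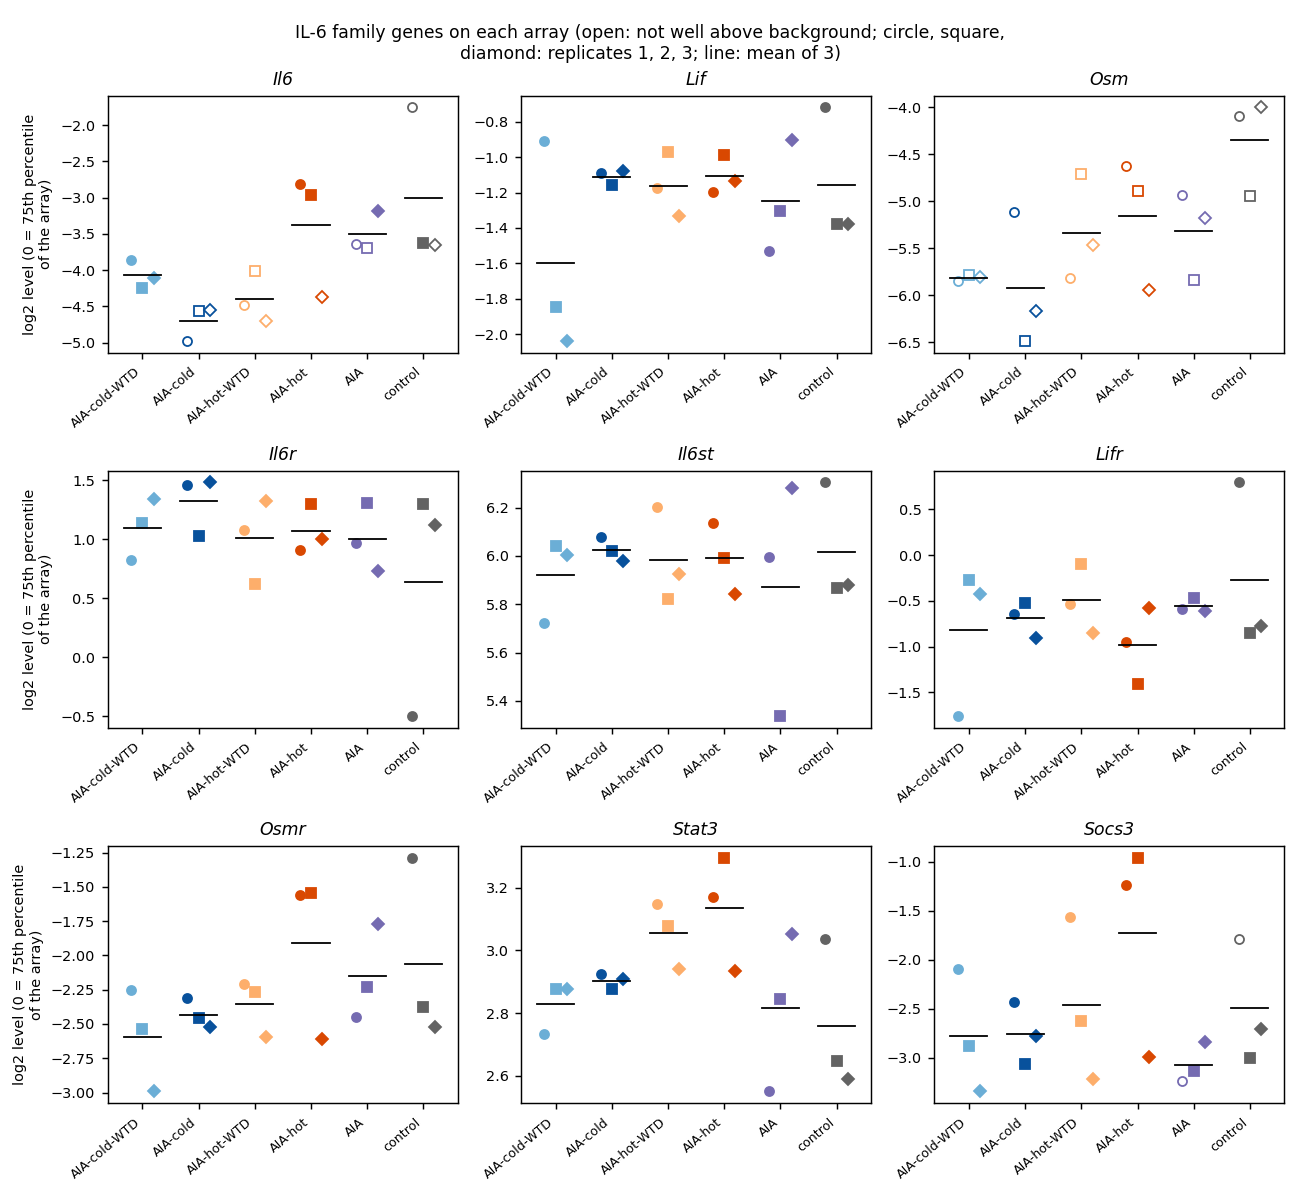
Level of each member on each of 18 arrays (y axis, log2 signal relative to the 75th percentile of the array; each panel has its own scale), by group (x axis), with a line at the mean of 3 arrays; for members with several probes the brightest is shown. Open symbols, not well above background, make up all Osm points and 11 of the 18 Il6 points. AIA-hot replicates 1 and 2 stand above replicate 3 for Il6, Il6st, Osmr, Stat3 and Socs3 and below it for Lifr.

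Lif, a cytokine that signals through gp130 and its own receptor chain, was well above background on 18 of 18 arrays. It read -0.91, -1.85 and -2.04 in AIA-cold-WTD and -1.09, -1.16 and -1.08 in AIA-cold. It lay between -1.33 and -0.97 in AIA-hot-WTD, between -1.19 and -0.99 in AIA-hot, between -1.53 and -0.90 in AIA and between -1.38 and -0.72 in control. AIA-cold-WTD replicates 2 and 3 were the lowest of all 18 arrays, and replicate 1 of that group lay above every AIA-cold array. The AIA-cold-WTD mean was -1.60 ± 0.60 and the AIA-cold mean -1.11 ± 0.04 (SD, n = 3 each), a difference of -0.49 ± 0.26 (SE, adjusted p = 0.901), and of -0.83 without AIA-cold-WTD replicate 1 (adjusted p = 0.142). AIA-cold-WTD replicate 1 shared a slide with the AIA-cold arrays and differed from their mean by 0.20, in the other direction. Group means ran from AIA-hot through AIA-cold, control, AIA-hot-WTD and AIA to AIA-cold-WTD, and all neighbours in that order overlapped.

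Osm, which acts through gp130 paired with the Osmr or Lifr chain, gave signals of 3.12 to 16.8 and was not well above background on any array, so its level could not be compared between groups.

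Among the receptor chains, Il6st was the steadiest by its brightest probe, but not by each of its probes. The brightest of its 3 probes read 5.72 to 6.04 in AIA-cold-WTD, 5.98 to 6.08 in AIA-cold, 5.82 to 6.20 in AIA-hot-WTD, 5.84 to 6.13 in AIA-hot, 5.34 to 6.28 in AIA and 5.87 to 6.30 in control. Group means spanned 0.16, less than the spread of 0.25 within groups (pooled SD), and all groups overlapped. Against control the intervals of this probe ran from -0.43 to 0.45 in AIA-cold and from -0.47 to 0.42 in AIA-hot, so a doubling or a halving of the group mean lies outside them. Its other probes were less precise, with -0.27 ± 0.31 and -0.33 ± 0.38 (SE) in AIA-cold against control. The larger of these SEs exceeded that of Il6r, at 0.37, and that of Osmr, at 0.34. The limit on a doubling or halving is thus that of the brightest probe alone. On these other probes control replicate 1 read 3.15 and 2.13, against at most 1.89 and 0.37 on the other control arrays.

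Il6r, the ligand-binding chain, was well above background on 18 of 18 arrays. It read 0.82, 1.13 and 1.34 in AIA-cold-WTD, 1.46, 1.02 and 1.48 in AIA-cold, 1.08, 0.62 and 1.32 in AIA-hot-WTD, 0.91, 1.30 and 1.00 in AIA-hot, and 0.97, 1.31 and 0.73 in AIA. Control arrays read -0.50, 1.30 and 1.12. Apart from control replicate 1, the groups overlapped throughout. AIA-cold had the highest mean and control the lowest, with a difference of 0.68 ± 0.37 (SE, adjusted p = 0.333) that was 0.11 without control replicate 1 (adjusted p = 0.88). AIA-cold-WTD, AIA-hot, AIA-hot-WTD and AIA lay between them in that order, and every neighbour overlapped the next.

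Lifr also set control replicate 1 apart, at 0.79 against -0.85 and -0.77 on the other control arrays. The lowest value was -1.76 in AIA-cold-WTD replicate 1, whose group otherwise read -0.27 and -0.42. AIA-hot read -0.96, -1.41 and -0.58, with a mean of -0.98 ± 0.41 against -0.28 ± 0.93 in control (SD, n = 3 each), a difference of -0.71 ± 0.43 (SE, adjusted p = 0.524). Without control replicate 1 that difference was -0.17 (adjusted p = 0.909). The remaining groups lay between -0.90 and -0.10. Means ran from control through AIA-hot-WTD, AIA, AIA-cold and AIA-cold-WTD to AIA-hot, with overlap between all neighbours.

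Osmr, the oncostatin M chain, read -1.56, -1.55 and -2.61 in AIA-hot, against -2.45, -2.23 and -1.77 in AIA and -1.29, -2.37 and -2.52 in control. It lay between -2.99 and -2.25 in AIA-cold-WTD, between -2.53 and -2.31 in AIA-cold and between -2.59 and -2.21 in AIA-hot-WTD. The AIA-hot mean was highest at -1.91 ± 0.61 and the AIA-cold-WTD mean lowest at -2.59 ± 0.37 (SD, n = 3 each), with control, AIA, AIA-hot-WTD and AIA-cold between them in that order and all neighbours overlapping. AIA-hot differed from control by 0.15 ± 0.34 (SE, adjusted p = 0.879), and by 0.54 without control replicate 1 (adjusted p = 0.585). AIA-cold differed from AIA-hot by -0.53 ± 0.34 (SE, adjusted p = 0.964), and by -0.88 without AIA-hot replicate 3 (adjusted p = 0.383).

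Stat3, which carries the signal to the nucleus, had 2 probes on 18 of 18 arrays. The brighter one read 3.17, 3.30 and 2.93 in AIA-hot, against 2.55, 2.84 and 3.05 in AIA and 3.04, 2.65 and 2.59 in control. It read 2.73 to 2.88 in AIA-cold-WTD, 2.93, 2.88 and 2.91 in AIA-cold, and 3.15, 3.08 and 2.94 in AIA-hot-WTD. On this probe every AIA-cold array lay below every AIA-hot array, though AIA-cold replicate 1 was almost level with AIA-hot replicate 3. Its means ran from AIA-hot through AIA-hot-WTD, AIA-cold, AIA-cold-WTD and AIA to control. Of neighbours in that order only AIA-hot-WTD and AIA-cold did not overlap. On the other probe AIA-cold read 1.93, 1.91 and 1.83, and overlapped both AIA-hot, with replicate 3 at 1.90, and AIA-hot-WTD, with replicate 2 at 1.90. The share of all genes that separate so was not counted. On the brighter probe the AIA-hot mean was 3.13 ± 0.18 and the control mean 2.76 ± 0.24 (SD, n = 3 each). The difference was 0.38 ± 0.15 (SE, adjusted p = 0.348). The Stat3 probe printed above gave 0.03 ± 0.12 for the same comparison, so the probes disagree on its size. Against AIA-hot, AIA-cold read -0.23 ± 0.15 on the brighter probe and -0.21 ± 0.12 on the other (SE). For AIA-cold against control the probes differed in sign, with 0.15 and -0.18.

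Socs3, the feedback inhibitor that STAT3 induces, was well above background on 16 of 18 arrays, the exceptions being control replicate 1 and AIA replicate 1. It read -1.24, -0.96 and -2.99 in AIA-hot and -1.56, -2.62 and -3.22 in AIA-hot-WTD. AIA-cold-WTD arrays read -2.10, -2.89 and -3.34, and AIA-cold arrays -2.43, -3.06 and -2.78. AIA arrays read -3.23, -3.14 and -2.84, and control arrays -1.79, -3.0 and -2.71. AIA-hot replicates 1 and 2 were the highest of the 18 arrays, and replicate 3 of that group lay within the AIA range. The AIA-hot mean was -1.73 ± 1.1 and the AIA mean -3.07 ± 0.21 (SD, n = 3 each), a difference of 1.34 ± 0.52 (SE, interval 0.22 to 2.46, adjusted p = 0.878). Against control AIA-hot differed by 0.77 ± 0.52 (SE, adjusted p = 0.571) and AIA-cold by -0.26 ± 0.52 (SE, adjusted p = 0.813). Without control replicate 1, where the probe was not well above background, the AIA-cold difference was 0.09 (adjusted p = 0.968), in the other direction. Without AIA-hot replicate 3 the AIA-hot difference was 1.40 (adjusted p = 0.213). Means ran from AIA-hot through AIA-hot-WTD, control, AIA-cold and AIA-cold-WTD to AIA, and all neighbours overlapped.

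AIA-hot held a split described here for Il6, Osmr, Stat3 and Socs3, a pattern singled out after the values were seen. For these 4 members replicates 1 and 2 stood above replicate 3. Il6st ran the same way on its brightest probe, at 6.13, 5.99 and 5.84. Lifr ran the other way, at -0.96, -1.41 and -0.58. For Lif and Il6r replicate 3 lay between replicates 1 and 2. Replicates 1 and 2 were hybridised on a slide with AIA replicates 2 and 3, and replicate 3 on a slide with the 3 AIA-hot-WTD arrays. Within the first slide, AIA-hot minus AIA was 0.55 for Il6, 0.45 for Osmr, 0.28 for Stat3 and 1.89 for Socs3, on 2 arrays of each group. It was 0.26 for Il6st and -0.64 for Lifr on that slide. Within the second, AIA-hot-WTD minus AIA-hot was -0.02 for Il6, 0.26 for Osmr, 0.12 for Stat3 and 0.52 for Socs3, against 1 AIA-hot array. Without AIA-hot replicate 3, AIA-hot minus AIA was 0.62 for Il6, 0.60 for Osmr, 0.42 for Stat3 and 1.97 for Socs3, with adjusted p-values of 0.175 to 0.588. The same arrays differed in tissue markers: the mean level of the synovial fibroblast and lining list was 3.61, 3.81 and 2.90 in AIA-hot replicates 1, 2 and 3, that of the adipocyte list 3.35, 2.23 and 4.43, and that of the cartilage list, with 5 of 6 genes tested, 2.26, 2.87 and -0.12. The part of slide and of these markers in the split was not tested.

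Across the 18 arrays, 100 relations were computed, between each tested member and the mean level of 9 marker lists and between the members themselves. By a permutation test with 100000 resamples and Benjamini-Hochberg adjustment, 9 passed by Pearson's r and 3 by Spearman's rho as well. Each slide holds 4 arrays or fewer, too few for a value within slides. Osmr and Socs3 moved together, with r = 0.77 (p = 0.00058, adjusted 0.0116) and rho = 0.70 (p = 0.00133, adjusted 0.0443). Without the 2 arrays with the most distant Socs3 levels, AIA-hot replicates 1 and 2, r was 0.62 over 16 arrays. Il6 and Osmr had r = 0.80 (p = 0.00014, adjusted 0.0035) and rho = 0.63 (p = 0.00621, adjusted 0.103), with Il6 below detection on 11 arrays.

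Il6r followed the macrophage list (Cd68, Csf1r, Cd163, Mrc1, Aif1 and Cd14), with r = 0.91 (p = 5e-05, adjusted 0.00333) and rho = 0.73 (p = 0.00093, adjusted 0.0443). Control replicate 1 was lowest in both, at a macrophage mean of 1.27. Without control replicates 1 and 2, the arrays farthest from the median, r was 0.72 over 16 arrays. Lifr ran against the synovial fibroblast and lining list, with r = -0.73 (p = 1e-04, adjusted 0.00333) and rho = -0.75 (p = 0.00065, adjusted 0.0443). Without AIA-cold-WTD replicate 1 and AIA-hot replicate 2 its r was -0.52 over 16 arrays, so part of that relation rests on those arrays, which had the highest list means and the lowest Lifr levels. Lifr had a larger r with the endothelial list, at 0.86 (p = 9e-05, adjusted 0.00333), but rho was 0.55 (p = 0.0214, adjusted 0.171). Without AIA-cold-WTD replicate 1 and control replicate 1 that r was 0.55 over 16 arrays. The r of Lifr with the adipocyte list was 0.32 over 18 arrays and did not pass. Leaving out control replicate 1 alone, a choice made after the data were seen, it was 0.88. On the same arrays r was 0.73 with the endothelial list and -0.80 with the synovial fibroblast and lining list.

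**Figure D3:**
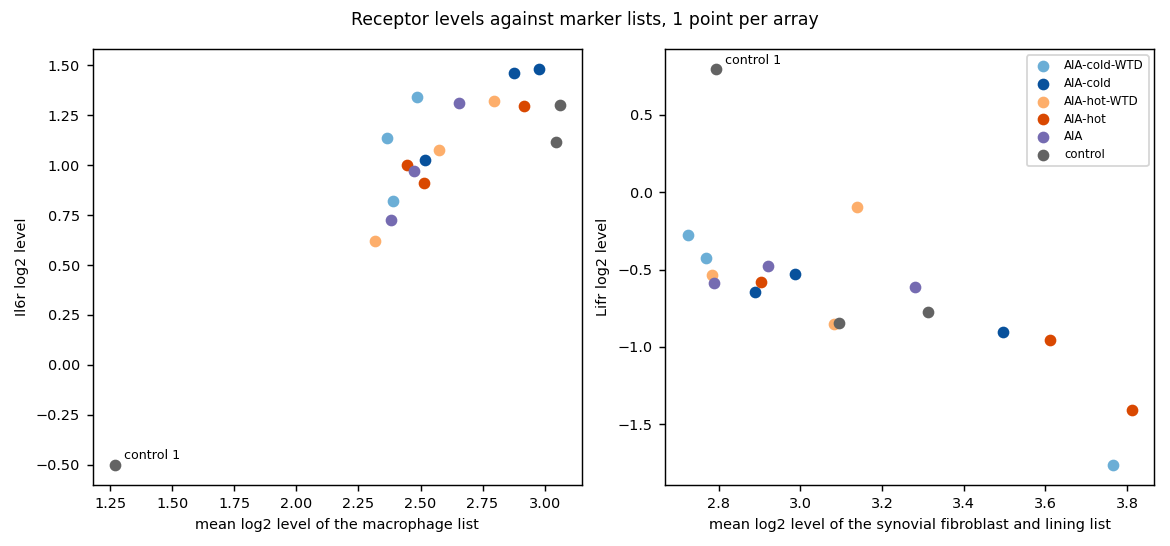
Level of Il6r against the mean log2 level of the macrophage list (left) and of Lifr against that of the synovial fibroblast and lining list (right), with 1 point per array coloured by group (18 arrays). Il6r is higher where macrophage genes are higher (r = 0.91, and 0.72 without control replicates 1 and 2), and Lifr is lower where lining genes are higher (r = -0.73).

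WTD was given in both model types, and the comparison asks whether family genes differed with it. In AIA-cold-WTD against AIA-cold, 7 of 8 members had a lower mean and the median difference was -0.12, against 0.01 over all genes. Il6 was the exception at 0.62 (interval -0.37 to 1.62, adjusted p = 0.984), measured on 3 of 3 AIA-cold-WTD and 0 of 3 AIA-cold arrays. Its probe was kept only because AIA-cold-WTD had 3 of 3 arrays well above background, so its detection there is no support for a difference. On the AIA-cold slide, AIA-cold-WTD replicate 1 differed from the AIA-cold mean by 0.83 for Il6, 0.66 for Socs3, 0.20 for Lif and 0.18 for Osmr. It differed by -0.17 for Stat3, -0.30 for Il6st, -0.50 for Il6r and -1.07 for Lifr. The Socs3 difference over all arrays was -0.02, with the opposite sign in 8 of 16 alternatives. The share of all genes with a lower mean was not counted for either model type. In AIA-hot-WTD against AIA-hot, 7 of 8 members also had a lower mean, with a median of -0.07 against -0.01 over all genes. Il6 differed by -1.01 (interval -2.00 to -0.02, adjusted p = 0.999), with 0 of 3 AIA-hot-WTD and 2 of 3 AIA-hot arrays well above background and with overlapping arrays. Socs3 differed by -0.74 ± 0.52 and Osmr by -0.45 ± 0.34 (SE). Within the slide that AIA-hot replicate 3 shares with the AIA-hot-WTD arrays Socs3 differed by 0.52, Osmr by 0.26 and Il6 by -0.02, so the negative values come from AIA-hot replicates 1 and 2. In AIA-cold-WTD, replicate 1, the array on the AIA-cold slide, stood apart from replicates 2 and 3: Lifr was -1.76 there, the synovial fibroblast and lining mean 3.77 and the adipocyte mean 0.94, against adipocyte means of 4.38 and 4.2. The mean of the 3 neutrophil genes tested of 6 was -0.11 there, against 3.70 and 4.93, and that of the 4 erythroid genes tested of 6 was 0.21, against 3.4 and 4.57. The title of replicate 1 also carries the letter G, and those of replicates 2 and 3 the letter Z. The part of these markers, and of whatever the letters stand for, in the AIA-cold-WTD values was not tested. The WTD difference of Il6 in AIA-cold minus that in AIA-hot was 1.63 ± 0.66 (SE, adjusted p = 0.988).

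Around the members, 5 lists of pathway genes were counted: 9 of 13 other gp130 ligands and receptors were tested, 9 of 9 Janus kinases, adaptors and shedding enzymes, 13 of 13 other STATs and feedback inhibitors, 16 of 16 STAT3 target genes and 10 of 14 acute phase genes. Of the pathway genes tested, 1 passed the threshold in any comparison. Ebi3, the subunit shared by interleukin-27 and interleukin-35, rose in AIA-cold against control. It read -1.16, -2.17 and -1.78 in AIA-cold-WTD, -0.998, -1.37 and -1.21 in AIA-cold, -1.90, -1.66 and -2.05 in AIA-hot-WTD, -0.99, -1.62 and -1.63 in AIA-hot, -2.31, -2.17 and -2.04 in AIA and -3.27, -2.35 and -2.73 in control. Every array of the arthritis groups, with or without WTD, lay above every control array, and control replicate 1 was not well above background. AIA replicate 1 at -2.31 was almost level with control replicate 2 at -2.35. The share of all genes that separate so was not counted. AIA-cold shared no slide with control, so slide and group cannot be told apart there. Against control, the AIA-cold difference was 1.59 ± 0.27 (SE, adjusted p = 0.0263) and the AIA-hot difference 1.37 ± 0.27 (SE, adjusted p = 0.0778). The AIA-cold call was lost in 7 of the alternatives tried: with normexp background correction (0.40, adjusted p = 0.168), with slide as a random block (adjusted p = 0.161), with only the arrays compared (adjusted p = 0.21), and without AIA-cold replicate 1, 2 or 3 or control replicate 1 (adjusted p = 0.0506 to 0.154). The mean of the T and NK cell list, with 6 of 6 genes tested, was -1.84 to -1.37 in AIA-cold and -2.81 to -1.84 in control. That of the neutrophil list, with 3 of 6 genes tested, was 1.00 to 2.62 in AIA-cold and -0.57 to 0.28 in control. The part of either list in the Ebi3 difference was not tested.

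**Figure D4:**
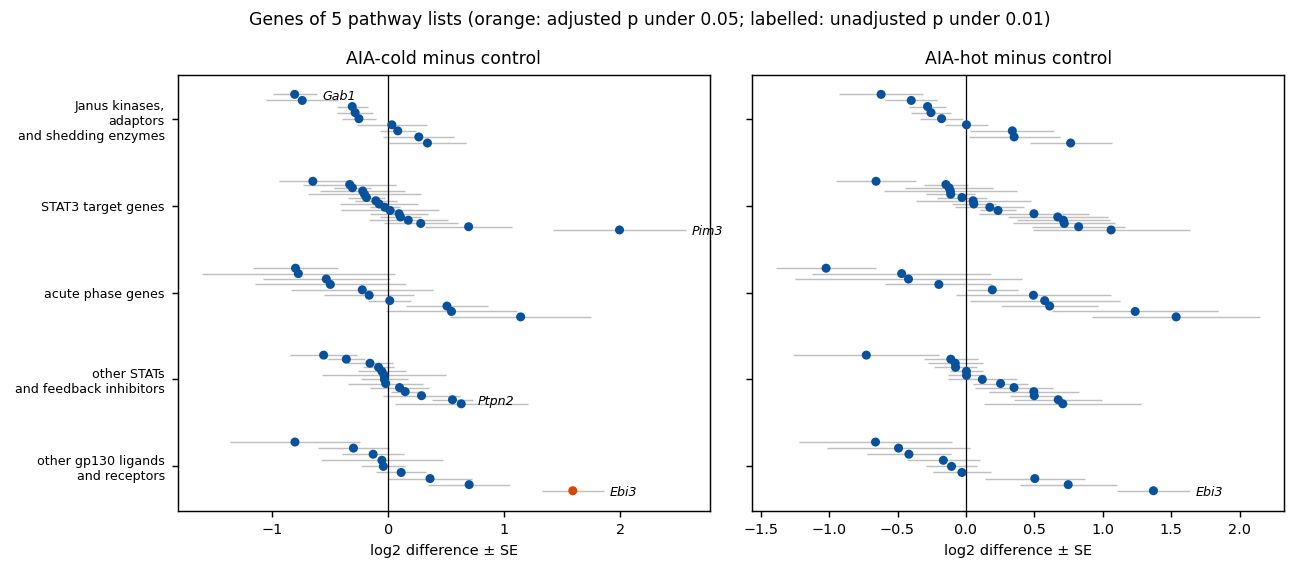
Log2 differences with SE of the tested genes of the 5 pathway lists (y axis) in AIA-cold minus control (left) and AIA-hot minus control (right). Ebi3 in AIA-cold, at 1.59, is the only point past an adjusted p of 0.05.

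None of the other genes described from the lists passed. In AIA-cold against control, Gab1, an adaptor that links gp130 to other kinases, read -0.81 ± 0.19 (adjusted p = 0.0636) and the shedding enzyme Adam10 -0.74 ± 0.31 (adjusted p = 0.215). Pim3, a survival kinase among the STAT3 targets, read 1.99 ± 0.57 (adjusted p = 0.102), the cyclin Ccnd1 -0.65 ± 0.29 (adjusted p = 0.247), the STAT phosphatase gene Ptpn2 0.55 ± 0.17 (adjusted p = 0.121) and Stat6 -0.36 ± 0.16 (adjusted p = 0.244, SE throughout). The acute phase genes Itih3 and Serpina3n read -0.80 and 1.14. Against AIA-hot, AIA-cold read -0.91 for Stat2, -0.89 for Junb, -1.11 for the haptoglobin gene Hp and 0.44 for Cntfr, with adjusted p-values of 0.643 to 0.993. The list medians in AIA-cold against control lay between -0.25 and -0.03 beside -0.04 over all genes, and in AIA-hot against control between -0.18 and 0.34 beside -0.05.

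The split within AIA-hot is described here for 4 of the named pathway genes, picked out after their values were seen. Lbp, which encodes a lipopolysaccharide-binding acute phase protein, read 4.33, 4.38 and 1.46 in AIA-hot, against 1.68, 1.72 and 1.58 in AIA and 1.55, 1.92 and 2.09 in control. Cebpd, a STAT3-induced transcription factor, read 4.90, 5.63 and 3.69 in AIA-hot, against 4.10, 3.76 and 3.83 in AIA and 4.00, 3.89 and 3.86 in control. Bcl3, a nuclear regulator of NF-kB, read 4.75, 5.04 and 3.31 in AIA-hot, and Jak2, a kinase bound to gp130, read 1.51, 1.98 and 0.50. For each of these 4 genes AIA-hot replicates 1 and 2 exceeded all AIA and control arrays, and replicate 3 did not. The same held for Junb, at 0.14, 0.59 and -1.02 in AIA-hot against at most -0.64 in AIA and -0.44 in control. Outside these groups, AIA-cold-WTD replicate 1 read 1.59 for Jak2, above AIA-hot replicate 1. It read 3.22 for Lbp, against 1.65 and 1.72 on the other arrays of its group. For Cebpd and Bcl3 it read 3.62 and 3.61, below AIA-hot replicates 1 and 2. Other list members ran the other way in AIA-hot replicates 1, 2 and 3, with Pim3 at 4.10, 3.47 and 4.88 and Serpina3n at 6.23, 5.86 and 6.42. Over all AIA-hot arrays none of the 4 passed against control, with differences of 1.54 for Lbp, 0.82 for Cebpd, 0.71 for Bcl3 and 0.76 for Jak2 (adjusted p = 0.337 to 0.417). Without AIA-hot replicate 3 the differences were 2.50 for Lbp, 1.35 for Cebpd and 1.24 for Bcl3 (adjusted p = 0.0412 each), but this leaves out the very array from which the genes were chosen to differ, so it is a description and not a test. AIA-hot minus AIA depended on how slide was handled. With slide as a fixed block it passed for Lbp (2.70, adjusted p = 0.00899), Jak2 (1.16, adjusted p = 0.0306), Cebpd (1.47, adjusted p = 0.0368) and Bcl3 (1.24, adjusted p = 0.0468). The fixed block takes AIA-hot minus AIA only from the slide that AIA-hot replicates 1 and 2 share with AIA replicates 2 and 3. This again leaves out the array from which the genes were chosen to differ, so these values are a description and not a test. With slide as a random block the adjusted p was 0.784 for each of the 4 genes, and without a block 0.878. Against control, AIA-hot did not pass for any of the 4 genes with the fixed block, with adjusted p-values of 0.145 for Lbp, 0.31 for Cebpd, 0.315 for Jak2 and 0.668 for Bcl3. No member passed under any of these settings.

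**Figure D5:**
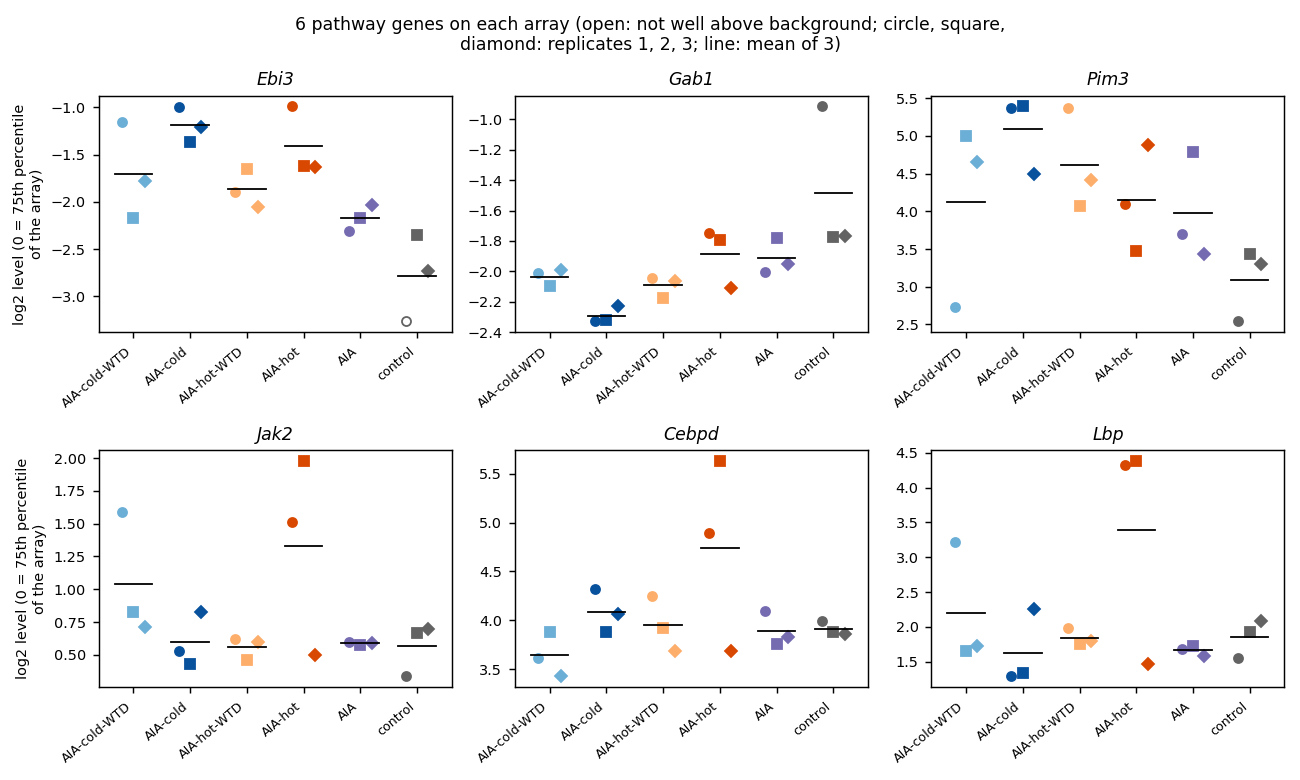
Level of 6 pathway genes on each of 18 arrays (y axis, log2 signal relative to the 75th percentile of the array; each panel has its own scale) by group (x axis), with a line at the mean of 3 arrays. Ebi3 is lowest in control, and Jak2, Cebpd and Lbp are high on AIA-hot replicates 1 and 2 and not on replicate 3. Jak2 and Lbp are also high on AIA-cold-WTD replicate 1.

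For each tested member the 3 most similar genes were sought by Pearson's r over the 18 arrays among 12062 named genes, as a description only. Socs3 was nearest to Slc39a14, a zinc transporter gene (r = 0.88), to Snai1 (0.88) and to Ampd3 (0.85). Stat3 was nearest to Sbno2 (0.80), Gabrq (0.78) and Pik3r1 (0.78). Il6 was nearest to Glyatl1, Agtr1b and Lrig3 (0.92 each), Osmr to Tmem115 (0.88), Meox1 (0.87) and Vwa7 (0.87), and Lif to Surf6 (0.96), Limd1 (0.95) and Aff2 (0.94). Il6r was nearest to Cep350, Crlf3 and M6pr (0.94 each), Lifr to Ushbp1 (0.95), Ablim3 (0.94) and Cytl1 (0.92), and Il6st to Pdlim1 (0.80), Lrat (0.76) and Zbed5 (0.74). Without control replicate 1, a choice made after the data were seen, r for Socs3 and Slc39a14 was 0.88 and for Stat3 and Sbno2 0.80 over 17 arrays, while r for Il6r and M6pr was 0.79. All points share the 18 arrays and their scaling.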

How the data were processed

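The deposited scanner files hold fluorescence intensity for each spot. The submitters' processing notes name Agilent Feature Extraction 10.7, and its processed signal, per the file headers, had the background subtracted; no scaling between arrays is recorded there. The authors also deposited a table of log2 values, used only as an alternative; its columns have medians of 5.40 to 5.42 and correlate with the scanner log2 values at 0.9887 or above, so it is log2 and uncentred, while its exact normalization is not given in the sources used here. Outlier spots and control spots were left out, spots of a probe were averaged, and log2 signal minus the array's 75th percentile was taken over 41012 probes. A probe counted as well above background where over 0.5 of its spots did, and 28271 probes so on all 3 arrays of a group were kept. A gene took its brightest kept probe. Probes were named through RefSeq (GRCr8) accessions or symbols, else as in the files. Group means of all 18 arrays were fitted in limma 3.58.1 (R 4.3.3), with Benjamini-Hochberg adjustment within a comparison. The floor of an array is the lowest level among its probes well above background. The number of arrays limits the precision. The 5 slides were tested as batches; AIA-cold shares no slide with AIA, AIA-hot or control, so slide and group cannot be told apart there. Groups come from the labels, and replicate numbers follow accession order and pair nothing. The members and lists were chosen with earlier results of these data known. Named genes are all members, pathway genes called in a comparison or among the 2 smallest p-values of their list in AIA-cold or AIA-hot against control or AIA-cold against AIA-hot, and the 3 genes nearest each member by Pearson's r; markers appear by list mean, except Prg4, Cd68 and Adipoq. A few genes that the rule names are not reported here. The fit was tested on simulated data for AIA-cold against control, with 50 genes changed at each size. It recovered 50% of genes with a log2 change of 1 and 78% of those with a change of 2. A true change of such a size in a member can therefore be missed. Alternatives changed background correction, scaling, filter, probe choice, slide block, arrays fitted and each array in turn.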

Additional observations from a re-analysis of the deposited data

How the results depend on the processing

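No member was called in any of the 11 comparisons under any alternative run, including those that left out 1 array (0 to 0 members). The smallest adjusted p of a member under any of them was 0.0578, for Il6 in AIA-cold against control with normexp background correction, where the difference was -0.87; over its alternatives that difference ran from -2.01 to -0.87. Of 88 member differences, 35 kept their sign in every alternative run, and 143 of 1413 alternative values had the opposite sign. Il6 has no value under the filter of 9 arrays, and slide as a fixed block could not be fitted for AIA-cold or AIA-cold-WTD against control, AIA or AIA-hot. The median of all genes against control was -0.14 to -0.22 with normexp, against -0.03 to -0.06 as reported. The counts of all genes called moved widely: for AIA-cold against control 126, but 0 with slide as a random block, with only its arrays or without AIA-cold replicate 2, 1 without replicate 1, 45 without control replicate 1, 297 without control replicate 2, and 353 with normexp; for AIA-hot 13, but 0 to 61 across alternatives; for AIA-cold-WTD 7, but 3380 with no filter; for AIA-hot-WTD 19, but 0 to 105; for AIA-hot against AIA 0, but 138 with slide as a fixed block; for AIA-cold-WTD against AIA-cold 2, but 82 without AIA-cold-WTD replicate 1. The causes were not tested. Gab1 in AIA-cold against control passed with quantile normalization (-0.74, adjusted p = 0.0475) or the authors' table (-0.74, adjusted p = 0.0451) and without control replicate 2 (-0.95, adjusted p = 0.0428). No paired analysis was possible because the replicate numbers follow accession order and mark no shared animal or batch. Dim signal limits Il6 and Osm most.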
